A study of Mus musculus with 8 samples.

Results

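Crypt stem cell markers are transcripts enriched in the cells at the base of the intestinal crypt that renew the epithelium. The 10 markers described here were chosen by gene symbol, Lgr5, Ascl2, Olfm4, Smoc2, Tnfrsf19, Rgmb, Msi1 and Prom1 as markers of crypt base columnar cells and Lrig1 and Bmi1 as reserve-type markers, out of 54139 genes in the deposited tables. Each symbol matched 1 row. RNA sequencing was done on mouse intestinal epithelial cells in 4 cKO libraries (genotype Rictor Flox with Villin-Cre) and 4 WT libraries (genotype Villin-Cre alone). Both groups carry Villin-Cre, a driver that is active throughout the intestinal epithelium, crypts included, and leaves Rictor intact in other cells. The Rictor protein is found in mTOR complex 2, which phosphorylates Akt, and not in mTOR complex 1. The sources used here do not give the intestinal segment, the age or sex of the animals, or whether each library came from a mouse of its own. The p-values therefore reflect library-to-library spread, part of which may be technical.

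Crypt base columnar cells sit between Paneth cells, divide regularly and depend on Wnt signals that R-spondins strengthen through LGR receptors. Reserve-type cells were described higher in the crypt, as slower cycling cells that can restore the crypt base after injury. The markers of both kinds are graded rather than exclusive, since Lrig1, Bmi1, Msi1 and Prom1 transcripts also occur in progenitors or in other cell types. In a bulk sample fewer cells of a type and less RNA per cell cannot be told apart.

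The upstream sequences of 3 markers on which the comparisons below turn are shown, 5′ to 3′ on the strand of the gene, from RefSeq on build GRCm38.p6. Olfm4 is the most abundant marker, Ascl2 has the largest point difference between the groups, and Tnfrsf19 has the TCF core motif CTTTGA upstream of 1 of its starts. Capitals mark this motif, the TATA motif TATAA and the E-box with the letters CAGCTG, each searched on both strands.
Olfm4, chr14:80000052-80000301, plus strand: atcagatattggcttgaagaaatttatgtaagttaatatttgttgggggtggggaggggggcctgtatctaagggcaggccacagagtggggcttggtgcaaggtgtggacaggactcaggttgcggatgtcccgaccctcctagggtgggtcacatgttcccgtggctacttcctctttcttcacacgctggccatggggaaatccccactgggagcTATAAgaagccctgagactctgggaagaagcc
Ascl2, chr7:142969265-142969514, minus strand: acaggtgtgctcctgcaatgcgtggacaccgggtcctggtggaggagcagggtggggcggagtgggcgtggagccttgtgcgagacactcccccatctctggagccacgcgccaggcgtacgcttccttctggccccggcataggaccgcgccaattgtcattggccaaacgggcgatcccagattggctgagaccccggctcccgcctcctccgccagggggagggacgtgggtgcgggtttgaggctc
Tnfrsf19, chr14:61037988-61038237, minus strand: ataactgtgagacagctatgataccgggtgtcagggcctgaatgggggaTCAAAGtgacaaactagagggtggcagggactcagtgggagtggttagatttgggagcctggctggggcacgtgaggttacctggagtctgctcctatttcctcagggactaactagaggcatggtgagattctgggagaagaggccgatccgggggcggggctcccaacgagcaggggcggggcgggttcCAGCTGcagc
Olfm4 has a TATAA that begins 32 bases before its RefSeq start, while the deposited span of the gene begins further upstream. The Ascl2 stretch holds none of the 3 motifs. The Tnfrsf19 window belongs to the more downstream of its 2 RefSeq starts and holds the TCF core 201 bases and an E-box 10 bases before that start. Promoter windows were given for 7 of the 10 markers, 11 windows in all, and not for Lgr5, Smoc2 and Msi1. The TCF core was in windows of 2 of these 7 markers, Tnfrsf19 and Prom1, and in 18.2% of all genes with windows. The windows searched reach 50 bases past the start, and the Prom1 match begins there, 8 bases from its start and not upstream of it. The E-box was in 1 marker, against 18.3% of all genes, and TATAA in 2 markers, Olfm4 and Rgmb, against 28.0% of all genes. The TATAA motif was added after the sequences were seen, and a match is a description of letters and not a binding site.

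Total counts ran from 15110451 to 18351748 in cKO libraries and from 15982538 to 18708335 in WT libraries. Rictor, the targeted gene, was at 30.4, 39.6, 20.8 and 40.6 CPM (counts scaled to the library total) in cKO libraries 1 to 4. WT libraries 1 to 4 had 41.7, 42.4, 57.3 and 51.4 CPM. The groups did not overlap, as held for 1.80% of all genes tested in that direction. The log2 fold change was -0.55 ± 0.20 (SE), with an edgeR adjusted p of 0.921. It was -0.29 without cKO library 3 and WT library 3 together, and -0.25 in limma with sample quality weights. Which exons are deleted is not stated, and gene counts would include reads from any others. Base composition set cKO library 3 apart, with a Spearman correlation of 0.59 across genes between its deviation from the mean library and transcript GC content, against -0.30 to -0.055 in the other 7 libraries. Rictor transcripts had a GC content of 42.3%, against a median of 50.4% over tested genes. With length and GC trends removed the Rictor log2 fold change was -0.39, and the part of GC content in its low value in cKO library 3 was not tested. Enterocyte markers summed to 12327 CPM in cKO library 1 and 17471 CPM in WT library 3, against 8145 to 8965 CPM in the other cKO libraries and 6531 to 8302 CPM in the other WT libraries. Fibroblast and smooth muscle markers, 9 genes that include Col1a1, Dcn and Acta2, summed to 1.65 to 2.13 CPM in cKO and 0.371 to 1.33 CPM in WT. These groups did not overlap, at a level near 0 beside the markers below.

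All 10 markers had enough counts to be tested, with a lowest count in any library of 124 for Tnfrsf19 and a highest of 62656 for Olfm4. Levels between genes are compared as FPKM, fragments scaled to gene length and library total. Olfm4, a secreted glycoprotein that is used as a robust marker of crypt base cells, stood far above the rest at 880 ± 125 FPKM in cKO and 1062 ± 71.5 FPKM in WT (SD, n = 4 each), and ranked 36 among all genes. Smoc2, a secreted matricellular calcium-binding protein, was next at 56.1 ± 8.99 FPKM in cKO and 56.5 ± 8.80 FPKM in WT. The Olfm4 mean over the 8 libraries was 17.2-fold that of Smoc2. Rgmb, Prom1 and Lrig1 followed with means over the 8 libraries of 35.8, 28.2 and 25.9 FPKM. Rgmb lay above Prom1 within each of the 8 libraries although their ranges overlapped, while Prom1 exceeded Lrig1 in 6 of 8 libraries. The lower 5 were Ascl2 at 9.20 FPKM, Bmi1 at 6.52, Lgr5 at 4.44, Msi1 at 4.43 and Tnfrsf19 at 2.08. Lgr5 and Msi1 were not separable, Lgr5 being the higher in 2 of 8 libraries. Lowest of all, Tnfrsf19 did not reach the range of Msi1. Lgr5, the marker by which these cells were first traced, was among the weaker transcripts per length.

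**Figure D1:**
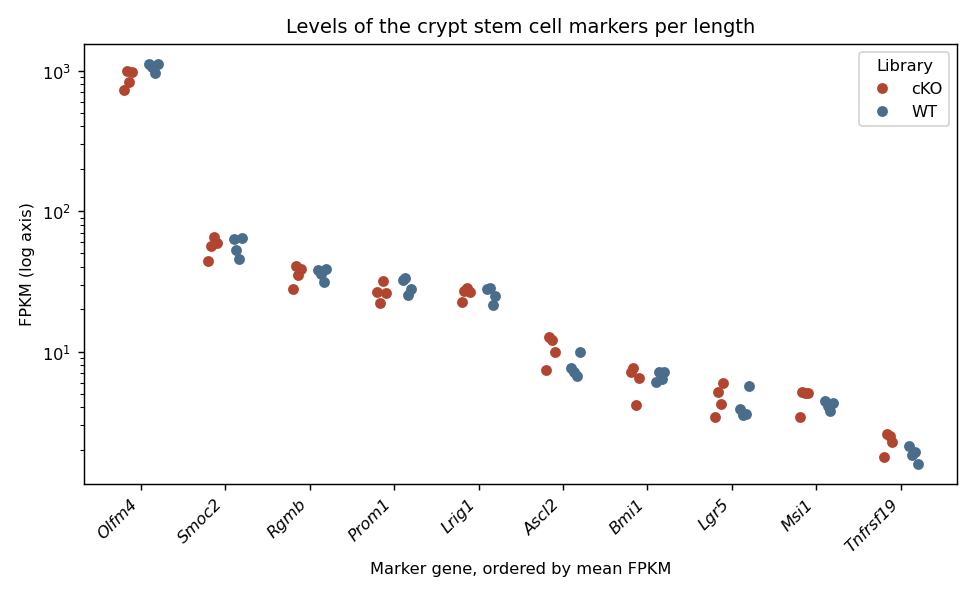
FPKM (vertical log axis) of each marker (horizontal axis, ordered by mean) in the 4 cKO libraries (red) and the 4 WT libraries (blue), 1 point per library. Olfm4 averages 971 FPKM over the 8 libraries and Tnfrsf19 2.08 FPKM, and the order of the group means is the same in cKO and WT.

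The comparison of cKO with WT addresses crypt stem cell transcripts in epithelial cells of the Rictor Flox with Villin-Cre genotype. None of the 10 markers passed the adjusted threshold of 0.05 in edgeR, a rule that 0.0136% of the 14701 genes tested passed, and 0 of 10 had an unadjusted p under 0.05, against 3.90% of all genes tested. Other tools also called 0 of 10 at an adjusted p under 0.05. The DESeq2 Wald test called 0.274% of 14947 genes. It gave an unadjusted p under 0.05 for 2 markers, Ascl2 and Olfm4, and for 2.82% of 27717 genes, a wider set that includes genes with few reads. Limma voom with sample quality weights gave one for Ascl2 and Prom1 and for 8.14% of genes. Of 21 alternative fits, 6 gave one for Ascl2, 2 each for Olfm4, Tnfrsf19 and Prom1, and 1 for Msi1. Over the 21 fits 2.82% to 8.14% of all genes had one, and the fits share libraries and are not independent. The groups overlapped for every one of the 10, while they did not overlap for 3.21% of all genes tested. Point estimates were higher in cKO for 5 markers and lower for 5, and 50.5% of all genes tested were higher. With upper quartile scaling Smoc2 and Rgmb, both close to 0, turned from lower to higher, which made 7 higher and 3 lower. The median log2 fold change was 0.079 over the 8 crypt base columnar markers and -0.026 over the 2 reserve-type markers, against 0.0022 over all genes tested. The crypt base columnar median was 0.0082 without cKO library 4 and 0.19 without cKO library 1. On the log2 scale the widest 95% interval of a marker, that of Lgr5, spanned ratios of cKO to WT from 83.4% to 152%, and that of Lrig1, the narrowest, 84.8% to 123%. These intervals are not limits of detection, since a call also had to pass adjustment over 14701 genes. Larger differences could go uncalled with 4 libraries a group. Igfbp4, described below, had a log2 fold change of 0.80 and an edgeR adjusted p of 0.386.

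**Figure D2:**
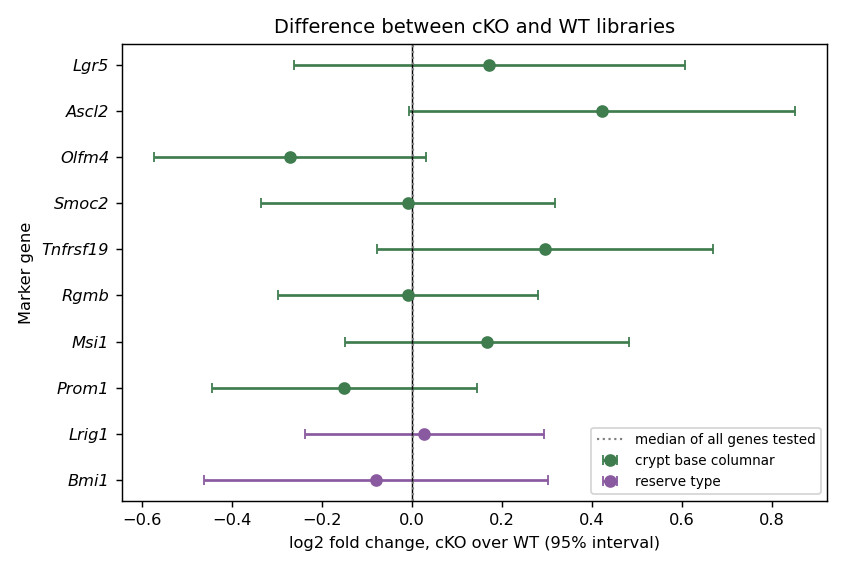
Log2 fold change of cKO over WT (horizontal axis) with its 95% interval from edgeR for each marker (vertical axis), crypt base columnar markers in green and reserve-type markers in purple, with a dotted line at the median of all genes tested, which lies at almost 0. Every interval includes 0, those of Ascl2 and Olfm4 only just.

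Lgr5 is a receptor for R-spondins that strengthens Wnt signals (ENSMUSG00000020140, chromosome 10, 115450311 to 115587780, minus strand). It had 35.4, 54.1, 44.2 and 61.8 CPM in cKO libraries 1 to 4, against 40.8, 36.7, 37.3 and 58.7 CPM in WT libraries 1 to 4. Library 4 was the highest in each group, and the groups overlapped over most of their range. By edgeR, log2 fold change was 0.17 ± 0.20 (SE) with an adjusted p of 0.922. It was 0.044 without cKO library 4 and 0.35 without WT library 4, so single libraries moved the estimate.

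Ascl2, a basic helix-loop-helix transcription factor that Wnt signals induce and that maintains crypt base cells, had the largest point difference (ENSMUSG00000009248, chromosome 7, 142966829 to 142969264, minus strand). Its levels were 12.1, 21.0, 19.8 and 16.2 CPM in cKO libraries 1 to 4, against 12.5, 11.8, 10.999 and 16.4 CPM in WT libraries 1 to 4. cKO libraries 2 and 3 lay above all WT libraries, cKO library 4 just below WT library 4, and cKO library 1 among the WT libraries. The log2 fold change was 0.42 ± 0.19 (SE), a ratio of 134% with a 95% interval from 99.6% to 180%, with an edgeR p of 0.0525 unadjusted and 0.921 adjusted and an exact two-sided permutation p of 0.143. Its transcripts are rich in GC, at 63.2% against a median of 50.4% over tested genes, and after removal of length and GC trends its log2 fold change came to 0.28.

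Olfm4 was the marker with the lowest point estimate (ENSMUSG00000022026, chromosome 14, 79984081 to 80023139, plus strand). It had 2187, 2990, 2477 and 2894 CPM in cKO libraries 1 to 4, against 3322, 3185, 2877 and 3339 CPM in WT libraries 1 to 4. Library 3 of WT was the single WT library inside the cKO range, lying below cKO libraries 2 and 4. The cKO level was 82.9% of WT, with a 95% interval from 67.2% to 102%, a log2 fold change of -0.27 ± 0.14 (SE), and edgeR p-values of 0.0748 unadjusted and 0.921 adjusted. An exact two-sided permutation test gave p = 0.0857. Olfm4 alone took 0.211% to 0.311% of all counts in cKO and 0.272% to 0.342% in WT, so counting error is negligible for this gene. Leaving out WT library 3, the single one inside the cKO range, had to remove the overlap. Without it 3.22% of all genes did not overlap in that direction, a share that does not allow for this choice of library. The Olfm4 log2 fold change was then -0.32.

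Smoc2 (ENSMUSG00000023886, chromosome 17, 14279506 to 14404790, plus strand) was at 126, 162, 186 and 169 CPM in cKO libraries 1 to 4, against 180, 151, 131 and 185 CPM in WT libraries 1 to 4. The lowest library of each group, cKO library 1 and WT library 3, had almost equal levels, as had the highest ones. The ratio was 99.4%, with a 95% interval from 79.3% to 125%.

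Tnfrsf19, also known as Troy, is a receptor of the tumor necrosis factor family and a Wnt target in crypt base cells (ENSMUSG00000060548, chromosome 14, 60963875 to 61046490, minus strand). Its levels were 8.59, 12.5, 12.0 and 10.8 CPM in cKO libraries 1 to 4, against 10.2, 8.79, 9.21 and 7.58 CPM in WT libraries 1 to 4. cKO libraries 2, 3 and 4 lay above all WT libraries and cKO library 1 inside the WT range. In edgeR its log2 fold change came to 0.30 ± 0.17 (SE) at an adjusted p of 0.921. With 124 reads in WT library 4, the exact Poisson interval of that library ran from 6.31 to 9.04 CPM and covers counting error only.

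Rgmb, a co-receptor for bone morphogenetic proteins (ENSMUSG00000048027, chromosome 17, 15806253 to 15826586, minus strand), had 74.1, 110, 93.6 and 103 CPM in cKO libraries 1 to 4, against 101, 95.01, 83.6 and 104 CPM in WT libraries 1 to 4. The highest and lowest values were both in cKO, and the ratio was 99.4% with a 95% interval from 81.3% to 122%. Rgmb lies within the deposited span of Chd1 on the opposite strand, and whether counting used strand is not given in the sources used here, so reads of the 2 genes may not be told apart.

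Msi1, the RNA-binding protein Musashi (ENSMUSG00000054256, chromosome 5, 115429599 to 115455698, plus strand), was at 20.2, 30.6, 29.7 and 29.4 CPM in cKO libraries 1 to 4, against 26.1, 24.0, 22.3 and 25.4 CPM in WT libraries 1 to 4. As for Tnfrsf19, cKO libraries 2, 3 and 4 lay above all WT libraries. Unlike for Tnfrsf19, cKO library 1 lay below all of them. In edgeR this gave 0.17 ± 0.14 (log2 fold change ± SE) at an adjusted p of 0.921, and 0.069 with length and GC trends removed. Since only cKO library 1 did not lie above all WT libraries, leaving it out had to make both Msi1 and Tnfrsf19 higher without overlap. Without it 3.89% of all genes tested were higher with no overlap, a share that does not allow for this choice of library. No marker was free of overlap without cKO library 2, 3 or 4 or WT library 1, 2 or 4, each left out singly. Without cKO library 1 the log2 fold changes of Msi1 and Tnfrsf19 were 0.29 and 0.40. Their edgeR p-values were then under 0.05 before adjustment, as was that of Ascl2 and those of 5.39% of all genes.

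Prom1 encodes prominin, a pentaspan glycoprotein of membrane protrusions (ENSMUSG00000029086, chromosome 5, 43993620 to 44102032, minus strand). It was at 194, 162, 230 and 188 CPM in cKO libraries 1 to 4, against 234, 240, 185 and 201 CPM in WT libraries 1 to 4. cKO library 2 lay below all WT libraries, cKO libraries 1 and 4 near the lower end of the WT range and cKO library 3 near its upper end. The edgeR estimate was -0.15 ± 0.13 (log2 fold change ± SE) at an adjusted p of 0.921. It was -0.31 without cKO library 3 and WT library 3 together. The groups then did not overlap, which follows from the values above, as held for 5.03% of all genes in that direction.

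Of the reserve-type markers, Lrig1 is a transmembrane inhibitor of ErbB receptors (ENSMUSG00000030029, chromosome 6, 94604529 to 94700158, minus strand). It had 127, 154, 161 and 149 CPM in cKO libraries 1 to 4, against 156, 161, 122 and 141 CPM in WT libraries 1 to 4. The ratio of the groups was 102%. Its lowest libraries were cKO library 1 and WT library 3, and the groups overlapped over nearly all of their range. Its sign changed in 5 of 21 alternative fits, all values lying within 0.1 of 0 on the log2 scale.

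Bmi1, a subunit of Polycomb repressive complex 1 (ENSMUSG00000026739, chromosome 2, 18677018 to 18686629, plus strand), had 28.6, 30.7, 16.7 and 25.8 CPM in cKO libraries 1 to 4, against 24.3, 28.7, 25.6 and 29.0 CPM in WT libraries 1 to 4. The low value was that of cKO library 3, and without it the log2 fold change was 0.077, against -0.080 ± 0.17 (SE) with all libraries. Bmi1 transcripts had the lowest GC content of the 10 markers at 40.9%, and cKO library 3 is the library whose deviations followed GC content; its part in the low value was not tested. With length and GC trends removed the log2 fold change was 0.051.

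**Figure D3:**
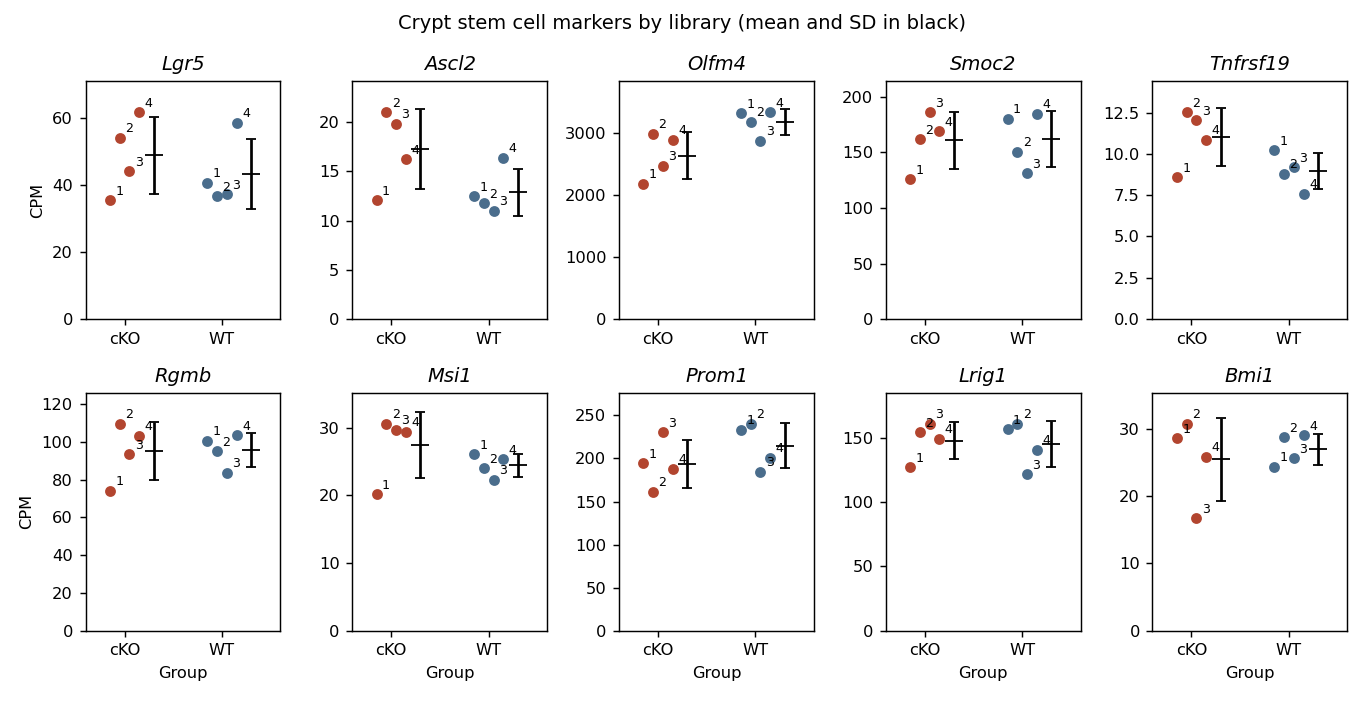
CPM (vertical axis, from 0) of each marker in cKO libraries (red, left) and WT libraries (blue, right), with the library number beside each point and the mean with SD in black. The groups overlap in all 10 panels, and cKO library 1 is the lowest library for Lgr5, Olfm4, Smoc2, Rgmb and Msi1.

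Library 1 of cKO and library 3 of WT were below the mean of the 8 libraries for all 8 crypt base columnar markers. For 5 of the 10 markers, Lgr5, Olfm4, Smoc2, Rgmb and Msi1, the lowest value of the 8 was in cKO library 1, and for Ascl2 and Lrig1 it was in WT library 3. Library 2 of cKO held the highest value of 5 markers, Ascl2, Tnfrsf19, Rgmb, Msi1 and Bmi1, but the lowest of Prom1. Per library, the median deviation of the crypt base columnar markers was -0.34, 0.23, 0.20 and 0.13 on the log2 scale in cKO libraries 1 to 4, against 0.071, -0.090, -0.19 and 0.14 in WT libraries 1 to 4. The libraries with low crypt markers were those with the highest enterocyte sums given above. Proliferation genes, 16 in all, were lowest in the same libraries, with sums of 1994 CPM in cKO library 1 and 1937 CPM in WT library 3, against 2169 to 2533 CPM in the other cKO libraries and 2304 to 2518 CPM in the other WT libraries. The part of enterocyte content in the marker values was not tested. With both of these libraries left out, a choice made after seeing the data, 7 markers had higher and 3 lower point estimates, and the median over the crypt base columnar markers was 0.13.

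**Figure D4:**
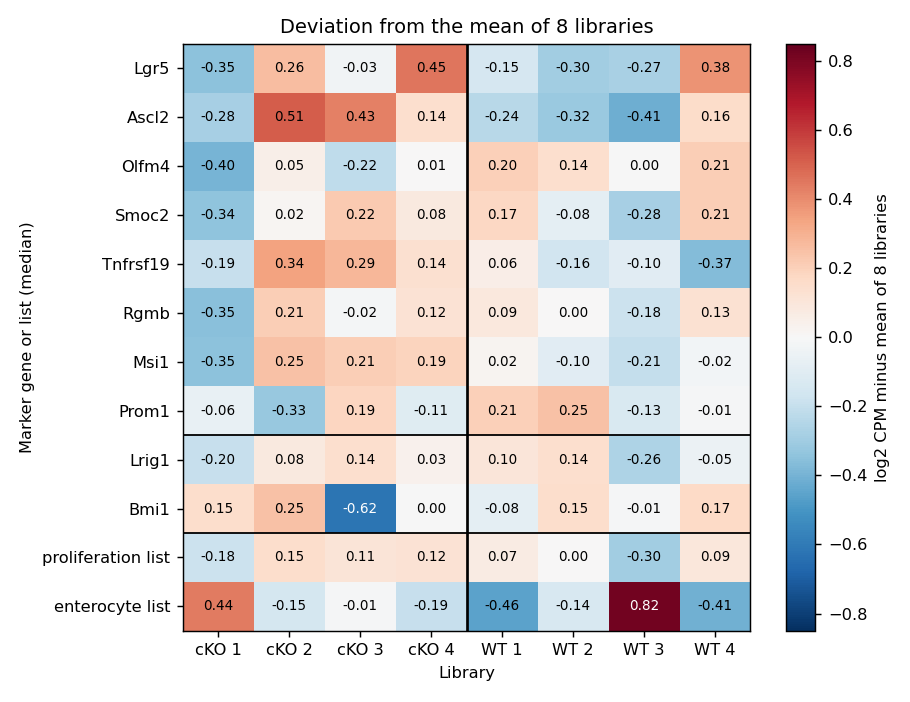
Deviation of log2 CPM from the mean of the 8 libraries for each marker (rows, crypt base columnar above reserve-type) and the median deviation of the proliferation and enterocyte lists, in cKO (left) and WT (right) libraries. All crypt base columnar rows are below the mean in cKO library 1 and WT library 3, though Olfm4 is only at -0.0027 in WT library 3. Bmi1 is above the mean in cKO library 1, at 0.15. The enterocyte list is at 0.44 and 0.82 in these libraries.

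Between single markers the correlation of log2 CPM over the 8 libraries, given as a description of libraries that share depth and composition, ran from -0.49 for Prom1 with Bmi1 to 0.84 for Ascl2 with Msi1. Msi1 was also close to Rgmb at 0.84, Smoc2 at 0.77, Tnfrsf19 at 0.77, Lrig1 at 0.73 and Lgr5 at 0.71. Prom1 and Bmi1 stood apart, each reaching at most 0.46 and 0.32 with any other marker. Of the reserve-type markers, Lrig1 had positive values with all 8 crypt base columnar markers and Bmi1 with 3 of them.

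Olfm4 departed from 5 of the 9 other markers when set against each of them within a library. Such a ratio does not depend on library scaling, but GC trends were not removed from it. It was examined after the values were seen. Per FPKM of Ascl2 there were 99.2, 77.9, 68.4 and 97.7 FPKM of Olfm4 in cKO libraries 1 to 4, against 146, 148, 143 and 112 in WT libraries 1 to 4. Every cKO library lay below every WT library. Likewise the FPKM of Olfm4 per FPKM of Msi1 ran from 163 to 212 in cKO and from 248.9 to 259 in WT, and per FPKM of Rgmb from 23.5 to 26.2 in cKO and from 28.7 to 30.6 in WT. Of the 9 ratios of Olfm4 to another marker, 5 did not overlap between the groups, those to Ascl2, Tnfrsf19, Rgmb, Msi1 and Lrig1, with Olfm4 relatively lower in cKO in each. The same held for 14.2% of all other genes tested when set against Olfm4, and for 0.143% in the opposite direction. The 5 ratios share the Olfm4 values and are therefore not independent. Transcript GC content was 47.1% for Olfm4 and 51.6% to 63.2% for the genes it is set against in these 5 ratios. It was 40.9% to 48.6% for the markers whose ratios to Olfm4 overlapped. The part of GC content in these ratios was not tested. Over all 45 pairs of markers 7 ratios did not overlap between the groups. Those without Olfm4 were Ascl2 to Smoc2, higher in cKO, and Rgmb to Msi1, lower in cKO. Set against Lgr5, Olfm4 ran from 162 to 214 in cKO and from 197 to 301 in WT, with WT library 4 inside the cKO range.

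**Figure D5:**
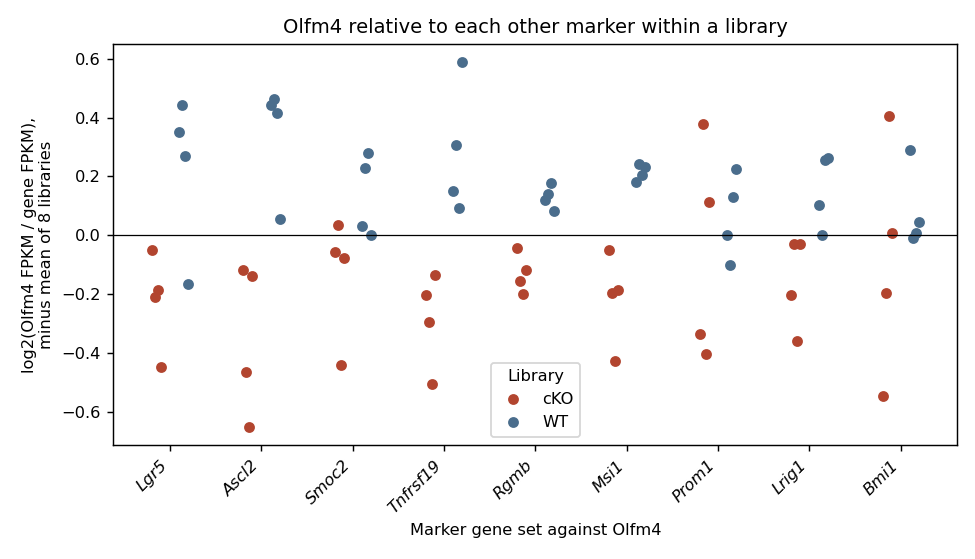
Log2 ratio of Olfm4 FPKM to the FPKM of each other marker, centred on the mean of 8 libraries (vertical axis), in cKO (red) and WT (blue) libraries. The 4 cKO points lie below the 4 WT points for Ascl2, Tnfrsf19, Rgmb, Msi1 and Lrig1 and overlap them for Lgr5, Smoc2, Prom1 and Bmi1.

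Other transcripts of the crypt base gave the context. Of 18 further crypt base markers 13 leaned higher in cKO and 5 lower by point estimate, while 50.5% of all genes tested were higher. Their median log2 fold change was 0.081. In edgeR 0 were called after adjustment and 2 had an unadjusted p under 0.05, against 3.90% of all genes tested. Igfbp4, a secreted binding protein of insulin-like growth factors, was at 57.2 ± 13.0 CPM in cKO and 32.8 ± 4.26 CPM in WT (SD, n = 4 each), or 0.80 ± 0.16 as log2 fold change ± SE. The edgeR p was 0.000447 before and 0.386 after adjustment. Its lowest cKO library had 44.9 CPM and its highest WT library 36.4 CPM. Cdca7, a cell division associated gene, was at 177 ± 11.4 CPM in cKO and 144 ± 22.6 CPM in WT. Its log2 fold change was 0.30 ± 0.13 (SE), with an edgeR adjusted p of 0.921. Neither Igfbp4 nor Cdca7 overlapped between the groups, as held for 1.41% of all genes tested in that direction. All 5 other reserve-type markers had higher point estimates, against 50.5% of all genes tested, with a median of 0.083. Before or after adjustment 0 passed in edgeR, against 3.90% of all genes tested before it. The transcription factor Sox9 had a log2 fold change of 0.27 ± 0.13 and the homeodomain protein Hopx one of 0.22 ± 0.18 (SE). Markers of injury-induced revival cells were close to 0, the whole list of 6 summing to 1.73 to 4.68 CPM in cKO and 1.96 to 4.48 CPM in WT.

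R-spondin and Wnt receptors and the ligases that remove them were at similar sums, 845 to 976 CPM in cKO and 933 to 985 CPM in WT. Of 7 tested genes 4 were higher and 3 lower by point estimate. The threshold of edgeR was passed by 0 before or after adjustment, against 3.90% of all genes tested before it. Fzd7, a Wnt receptor of crypt base cells, had a log2 fold change of 0.22 ± 0.12 and Fzd5 one of -0.15 ± 0.11 (SE). Rspo2 and Rspo3, stromal ligands, had no read in any library. Of the paralogs of the markers 6 were tested, 1 higher and 5 lower by point estimate. In edgeR 0 passed the threshold after and 1 before adjustment, against 3.90% of all genes tested before it. Msi2, the paralog of Msi1, was at 51.2 ± 6.20 CPM in cKO and 61.7 ± 3.68 CPM in WT (SD, n = 4 each) without overlap, at -0.27 ± 0.11 on the log2 scale (SE) and an edgeR adjusted p of 0.921.

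Paneth cells, the neighbours of the crypt base cells, had list sums of 17623 to 27566 CPM in cKO and 18847 to 29765 CPM in WT. Of the 8 Paneth genes 5 leaned higher and 3 lower by point estimate. An edgeR p under 0.05 was found for 0 after and 2 before adjustment, against 3.90% of all genes tested before it. Ang4, an antimicrobial ribonuclease, was at 480 ± 94.6 CPM in cKO and 845 ± 246 CPM in WT, and Lyz1, the Paneth lysozyme, at 6651 ± 1418 CPM in cKO and 9077 ± 1959 CPM in WT (SD, n = 4 each). Their log2 fold changes were -0.82 ± 0.22 and -0.45 ± 0.20 (SE), with edgeR adjusted p of 0.891 and 0.921, and both overlapped between the groups.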

How the data were processed

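RNA from 8 libraries of mouse intestinal epithelial cells, 4 cKO and 4 WT, was sequenced on the Illumina NovaSeq platform, and Hisat2 (alignment) and Stringtie (transcript assembly) were used, per the series' design text. The sources used here give no versions, genome build, annotation, counting program or use of strand. The authors deposited whole-number counts per gene with no normalization and FPKM values for the same 54139 genes. Of the identifiers 53706 are in GENCODE M21 (build GRCm38), 97.1% of them with identical coordinates, as for 9 of the 10 markers, the exception being Rgmb. Every pair of libraries differed by more than counting noise.

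The main test on counts was quasi-likelihood in edgeR 4.0.16 (R 4.3.3, TMM factors, default filter, robust fit, genotype as the single term), with p-values adjusted by Benjamini-Hochberg over all 14701 genes tested. Each SE was taken as the absolute log2 fold change over the root of the F statistic. CPM use TMM-scaled totals. Log2 CPM have a prior count of 2. Exact permutation tests were two-sided on log2 CPM, and 0.0286 is the smallest p that 4 against 4 can give. The edgeR step was tested on simulated data. Transcript GC is the median over GENCODE M21 transcripts of a gene, known for 98.3% of tested genes. DESeq2 1.42.0 and limma 3.58.1 served as alternatives. The markers and lists were chosen with earlier results of these data known. All 10 markers are named, and of each other list at most the 2 genes with the smallest p, together with the 5 genes most like Lgr5. Genes named outside this rule (Chd1, Col1a1, Dcn, Acta2, Rspo2, Rspo3) were chosen after their values were seen.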

Additional observations from a re-analysis of the deposited data

Results flagged for a closer look

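Over the 22 groups of 4 values looked at, those of the 10 markers and Rictor in cKO and in WT, 1 held a lone distant value, and chance alone gives about 1 in 20 such groups. This was Msi1 in cKO, where library 1 had 20.2 CPM and libraries 2 to 4 had 29.4 to 30.6 CPM. The gap to the nearest library made up 0.884 of the whole spread. The same library had the second highest enterocyte sum of the 8, and the part of that in the Msi1 value was not tested.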

How the results depend on the processing

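In all 21 alternatives to the edgeR test with TMM factors, 0 of the 10 markers passed an adjusted p of 0.05, and the 2 list medians moved by less than the spread between libraries. Leaving out 1 library gave 0.0082 to 0.19 for the crypt base columnar median and -0.079 to 0.031 for the reserve-type one. The reserve-type median, negative with all libraries, was positive in 3 alternatives, without cKO library 3 (0.031), without WT library 2 (0.017) and with length and GC offsets (0.014). Lgr5, Ascl2, Msi1 and Tnfrsf19 kept positive and Olfm4, Prom1 and Rictor negative signs in every one. Ascl2 ranged from 0.28 to 0.56, Olfm4 from -0.33 to -0.19, Lgr5 from 0.044 to 0.37 and Prom1 from -0.31 to -0.050, with sample quality weights giving the highest Lgr5 and lowest Prom1 value. Signs changed only for markers near 0, and the cause was not tested. With upper quartile factors Smoc2 was at 0.0044 and Rgmb at 0.0048. With sample quality weights Rgmb was at 0.037, Lrig1 at -0.040 and Bmi1 at 0.019. With length and GC offsets Smoc2 was at 0.011, Lrig1 at -0.023 and Bmi1 at 0.051. Without both libraries 3 Lrig1 was at -0.090 and Bmi1 at 0.055. Without cKO library 1 and WT library 3, added after seeing the data, Smoc2 was at 0.0044 and Rgmb at 0.035. Leaving out 1 library gave Smoc2 from -0.096 to 0.092, Rgmb from -0.074 to 0.094, Lrig1 from -0.047 to 0.094 and Bmi1 from -0.17 to 0.077.

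The count of genes called over the whole table was 2, and 0 to 3 when 1 library was left out. It was 10 with no filter, 4 without both libraries 3, 41 by DESeq2, 8 with sample quality weights, 0 without cKO library 1 and WT library 3, and 0 by limma on log2(FPKM + 0.1) with a mean FPKM of at least 0.5 and on log2(FPKM + 1). With the replicate number as a block 0 genes were called, with an unadjusted edgeR p under 0.05 for 554 genes. Same-numbered libraries correlated at -0.11, 0.11, 0.15 and 0.14 in their deviations from the group means, and different-numbered ones at -0.20 to 0.15. Libraries 3 and 4 of cKO correlated best with the WT library of the same number. Library 1 of cKO correlated best with WT library 2, and cKO library 2 with WT library 1. These values do not settle whether the numbers pair the libraries, and the main test did not pair them. Counting error is widest for the markers with the fewest reads, of which Tnfrsf19 had as few as 124 and Ascl2 178 in a library.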

Other observations

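Among 9982 genes with a mean of at least 5 CPM and a symbol that is not a predicted or clone name, the 5 whose log2 CPM followed Lgr5 most closely over the 8 libraries were Usp49, a deubiquitinase, at a Pearson r of 0.99, and Galc, Rpl4, Zfp608 and Ago1 at 0.95 to 0.96. Their log2 fold changes of cKO over WT were 0.052 to 0.094, each smaller than that of Lgr5. No other crypt marker of the 10 was among them, the closest being Rgmb at 0.76. With 8 libraries and this many genes, such values describe these libraries only.

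Enteroendocrine markers summed to 576 to 680 CPM in cKO and 428 to 577 CPM in WT, with 6 of 7 genes higher in point estimate, 0 past the threshold of edgeR after and 4 before adjustment, against 3.90% of all genes tested before adjustment. Sst, the somatostatin of D cells, was at 60.5 ± 13.8 CPM in cKO and 36.1 ± 3.57 CPM in WT (SD, n = 4 each, edgeR adjusted p = 0.489). The Sst groups did not overlap, as held for 1.41% of all genes tested in that direction. T cell markers summed to 224 to 685 CPM in cKO and 177 to 577 CPM in WT.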
